A study of Mus musculus with 6 samples.

Results

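The chemokine ligands and chemokine receptors of mouse gastrocnemius are described here in mice fed a high or a normal phosphate diet. The genes were chosen by name: protein-coding rows whose symbols are Ccl or Cxcl with a number, Ccr or Cxcr with a number, Cx3cl1 or Cx3cr1. This gave 52 genes, 36 ligands and 16 receptors, of 21977 protein-coding rows and 47967 rows in all. The RNA came from the gastrocnemius, a muscle of the calf, of C57BL/6 males 20 to 24 weeks old after 12 weeks on a diet. The high phosphate diet held 2.0% inorganic and 2.3% total phosphate (3 libraries), and the normal phosphate diet held 0.6% inorganic and 0.9% total phosphate (3 libraries). Both diets held the same calcium, magnesium, sodium and potassium, and the labels give no transgene, deletion or further treatment for either. The labels do not say that each library came from its own mouse, so the p-values below measure the spread between libraries, which may be technical.

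Chemokines are small secreted proteins that guide migrating cells along gradients, and their receptors are seven-pass membrane proteins that signal through inhibitory G proteins. The CC and CXC ligands are named for the spacing of their first cysteines, and Cx3cl1, fractalkine, is made as a membrane-anchored protein that can be shed. In skeletal muscle, resident macrophages, fibroblasts and endothelium are known sources of ligands, and most of the receptors sit on leukocytes rather than on muscle fibres. Some pairs serve lymphoid organs (Ccr7 with Ccl19 and Ccl21, Cxcr5 with Cxcl13), and others act in inflammation or in tissue upkeep.

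Many of the genes lie in tandem clusters, in GENCODE M21 coordinates of GRCm38. Ccl2, Ccl7, Ccl11, Ccl12, Ccl8 and Ccl1 stand side by side at chr11:82035571-82305690. Ccl5, Ccl9, Ccl6, Ccl3 and Ccl4 follow at chr11:83525778-83664683. Cxcl9 and Cxcl10 are neighbours at chr5:92321347-92348889, apart from the neutrophil chemokines Cxcl5, Cxcl3, Cxcl15, Cxcl1 and Cxcl2 at chr5:90759360-90905938. Ccl22, Cx3cl1 and Ccl17 share chr8:94745590-94812036.

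The 250 bases upstream of the start of 3 members are printed from RefSeq (GRCm38.p6). Cxcl10 and Cxcl9 are shown because both are known interferon targets and were high in the same high phosphate library, and Ccr1 because it was the called member with a kappaB match. Capitals mark matches, on either strand, to the core of the interferon-stimulated response element, GAAA, any 2 bases and GAAA, or to the kappaB consensus. The Cxcl10 stretch is chr5:92348890-92349139 (minus strand), the Cxcl9 stretch chr5:92328080-92328329 (minus strand), and the Ccr1 stretch chr9:123968693-123968942 (minus strand). 
Cxcl10: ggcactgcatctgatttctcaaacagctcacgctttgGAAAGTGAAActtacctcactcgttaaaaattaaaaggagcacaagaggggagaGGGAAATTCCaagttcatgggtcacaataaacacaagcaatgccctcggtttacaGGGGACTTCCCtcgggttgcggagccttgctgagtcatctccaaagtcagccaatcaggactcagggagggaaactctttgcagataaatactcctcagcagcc
Cxcl9: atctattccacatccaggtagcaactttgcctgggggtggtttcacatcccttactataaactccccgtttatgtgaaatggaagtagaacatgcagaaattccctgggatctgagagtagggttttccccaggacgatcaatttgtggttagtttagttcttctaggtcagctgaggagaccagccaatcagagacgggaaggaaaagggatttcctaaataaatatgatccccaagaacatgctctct
Ccr1: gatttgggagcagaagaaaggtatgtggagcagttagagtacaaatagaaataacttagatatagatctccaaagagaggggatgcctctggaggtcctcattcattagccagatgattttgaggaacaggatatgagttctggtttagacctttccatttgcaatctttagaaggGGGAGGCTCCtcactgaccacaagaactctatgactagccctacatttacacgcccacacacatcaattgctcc
Cxcl10 held both motifs, Cxcl9 neither in these letters, and Ccr1 a kappaB match alone. Upstream stretches were found for 38 of the 52 genes, 45 stretches in all. The interferon element was in 3 of the 45 (6.67%), and in 2.98% of 32851 stretches of all genes. The kappaB consensus was in 10 of the 45 (22.2%), and in 7.25% of those of all genes. Among the 9 genes with a stretch that fell, 0 held the interferon element and 1, Ccr1, held kappaB. The kappaB matches were otherwise in Cxcl10 and Ccl9, which were not called, and in Ccl1, Ccl20, Ccr3, Ccr6, Cxcl1, Cxcl2 and Cxcl3, which were too low to be tested. A match is a run of letters, not a shown binding site.

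The libraries held 21856006 to 27474251 gene counts. Levels are TMM-normalized CPM, a gene's share of its library's counts after TMM scaling, given for replicates 1, 2 and 3 of a diet in that order unless stated, and ± after a mean is the SD (n = 3 libraries). Each log2 fold change is the high phosphate over the normal phosphate level, with its SE. A gene was called where edgeR's quasi-likelihood test, adjusted after Benjamini and Hochberg over all 15347 genes tested, gave p under 0.05. The tissue label was borne out by the fibre genes: 8 markers of muscle fibres summed to 183542 to 231116 CPM on the high and 73869 to 105431 CPM on the normal phosphate diet, and 5 of the 8 rose. Normal phosphate replicate 2 stood apart from the rest of its diet on the first principal component and had the highest level of 14 of the 31 members tested, so results are given without it where it matters. TMM put the median gene at a log2 fold change of -0.02, and library size alone put it at -0.49. With TMM 3528 genes were called higher and 4035 lower, and with library size alone 878 were higher and 7886 lower, so directions here are relative to the median gene after TMM.

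Chemokine receptors known from T cells, B cells and macrophages fell on the high phosphate diet, together with several ligands. Of the 52 genes 31 could be tested, and 16 of them fell, 8 ligands and 8 receptors, while 0 rose. Among all genes tested 26.3% fell and 23.0% rose. Of the 31 tested, 15 were called and lower by at least 1 on the log2 scale, against 13.5% of all genes tested. By at least 2 it was 8 of the 31, against 3.22% of all genes tested. In 16 members, not all of them called, every high phosphate library lay below every normal phosphate one, as in 32.1% of all genes. The 1 member with a positive change at an unadjusted p under 0.05 was Ccl25, and DESeq2 and limma on the authors' FPKM values also called 0 members higher. Cxcl12, Cxcl14 and Ccl11, the ligands with the highest levels on the high phosphate diet, were not called. With library size alone 22 members were lower and 0 higher, where 51.4% of all genes were lower.

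The count depends on which genes could be tested. Of the 31, 20 reached the filter level in all 6 libraries, and 8 of these fell, against 24.6% of 13654 genes that did so. The other 11 reached it in the 3 normal phosphate libraries and in fewer high phosphate ones, a way of passing that itself favours lower values. Of these 8 fell, as did 53.5% of 1259 such genes. The 8 were Ccl5, Ccl12, Ccl17, Ccl22, Ccr7, Cxcr3, Cxcr5 and Cxcr6, while Cxcl10, Ccr9 and Ccr10 were not called. With no filter, 49 members had a count above 0 in some library and 19 of them were called lower, against 15.2% of 28193 genes. Of the 16 called with the filter 14 were among these 19, while Ccl7 (-1.43, edgeR adjusted p = 0.0690) and Ccl17 (-1.20, edgeR adjusted p = 0.0950) were no longer called. The median log2 fold change was -0.88 over the 21 ligands tested and -2.57 over the 10 receptors tested, and -0.02 over all genes. Ccr7, Ccr9, Ccr10, Cxcr3, Cxcr5 and Cxcr6 were among the 11 that passed through the normal phosphate libraries. The filter thus favours a lower receptor median, which is not like for like with the median over all genes. Without normal phosphate replicate 2, 12 of the 31 members were called lower, against 22.2% of the 15556 genes tested in that fit. These 12 were all among the 16.

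**Figure D1:**
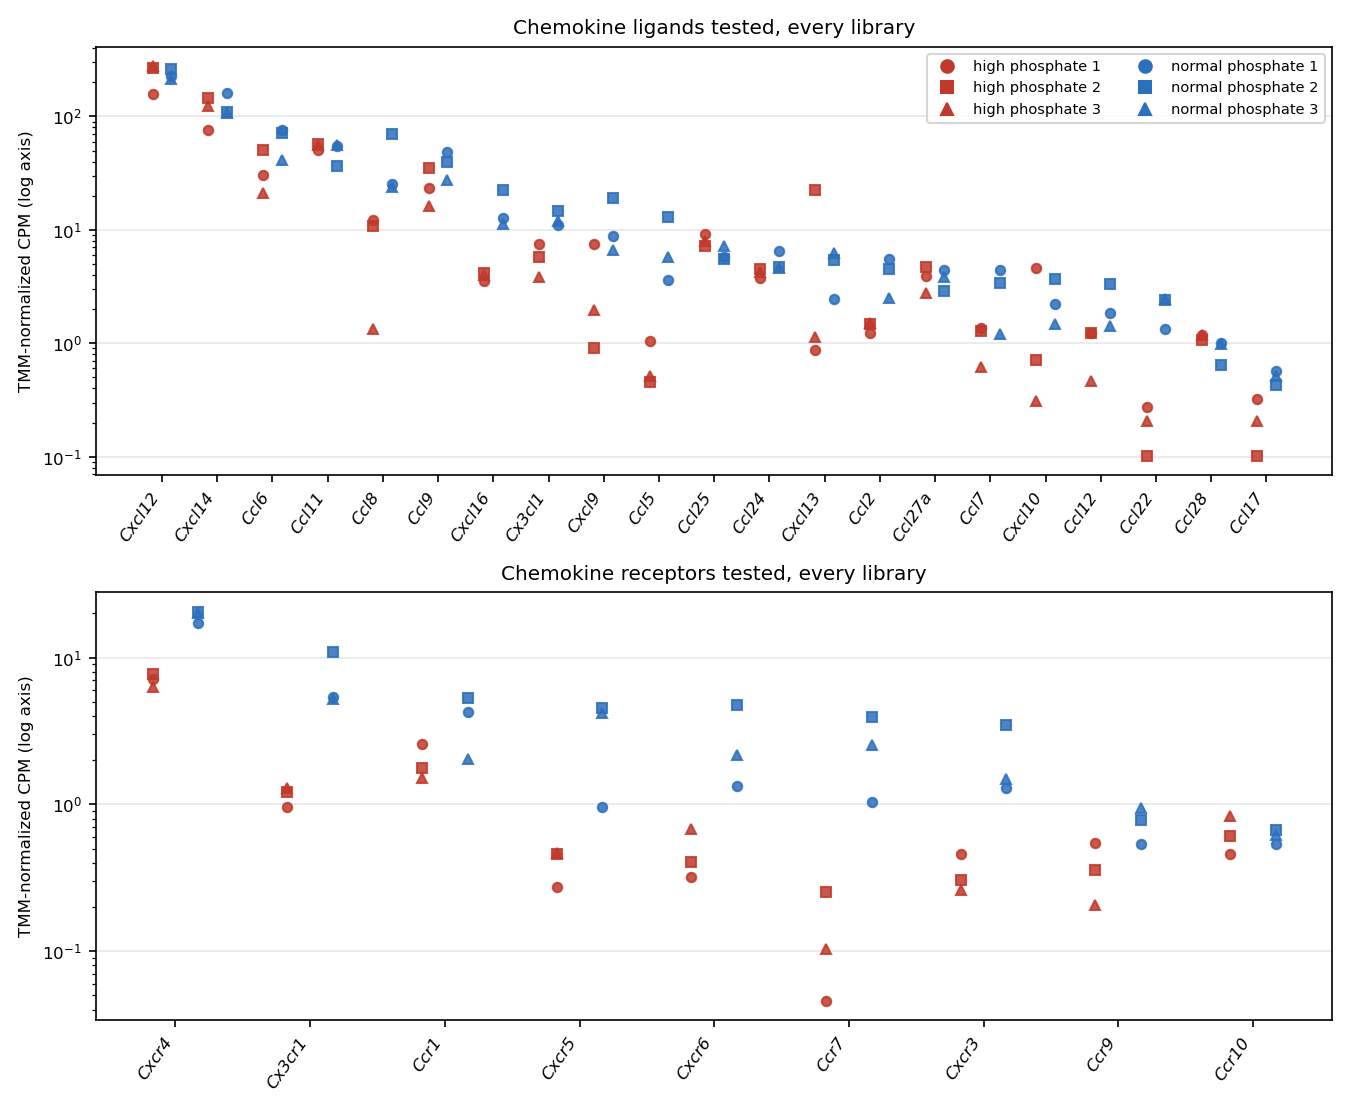
TMM-normalized CPM (log axis) of tested ligands (top) and receptors (bottom), one point per library, high phosphate left of normal phosphate and symbols giving the replicate. Cxcr4 and Cx3cr1 separate the diets fully, and Cxcl13 has 1 high phosphate library at 22.6 CPM above all the others.

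Of the 6 CXC receptors 4 could be tested, and these 4 fell. Only Cxcr4 reached the filter level in all 6 libraries, and of all genes that did so 24.6% fell. Cxcr3, Cxcr5 and Cxcr6 reached it in every normal phosphate library but in fewer high phosphate ones. Of all genes that passed in that way 53.5% fell. Cxcr4, the receptor for Cxcl12 on leukocytes, progenitors and endothelium, had 7.10, 7.69 and 6.28 CPM on the high phosphate diet, against 17.2, 20.6 and 20.1 CPM on the normal phosphate diet. The libraries of each diet lay close together and the diets were well apart. Its log2 fold change was -1.46 ± 0.13 (edgeR adjusted p = 0.000239), and it was -1.37 to -1.53 when any 1 library was left out. Cxcr4 lies at chr1:128588199-128592293.

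Cxcr3, the receptor on activated T and NK cells for interferon-induced ligands, had 0.458, 0.306 and 0.260 CPM on the high and 1.30, 3.47 and 1.501 CPM on the normal phosphate diet. The change was -2.59 ± 0.48 (edgeR adjusted p = 0.00259), and -2.01 without normal phosphate replicate 2, which was the highest library. Cxcr6, found on tissue-resident T cells and innate lymphocytes, had 0.321, 0.408 and 0.675 CPM on the high and 1.34, 4.75 and 2.16 CPM on the normal phosphate diet. No high phosphate library reached the lowest normal phosphate library for either gene. Cxcr6 changed by -2.56 ± 0.53 (edgeR adjusted p = 0.00464), and by -1.91 without normal phosphate replicate 2.

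Cxcr5, which guides B cells and follicular helper T cells, had 0.275, 0.459 and 0.467 CPM on the high phosphate diet, against 0.958, 4.57 and 4.17 CPM on the normal phosphate diet. The fold change was -3.01 ± 0.62 (edgeR adjusted p = 0.00493). The diets did not overlap, but normal phosphate replicate 1 was nearer to the high phosphate libraries than to the rest of its own diet. The neutrophil receptors Cxcr2 and Cxcr1 were too low to be tested: Cxcr2 had 1, 8 and 5 counts on the high and 10, 12 and 31 counts on the normal phosphate diet, and Cxcr1 had 1 count in all.

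The CC receptors were more mixed. Ccr1, a receptor of monocytes and neutrophils, had 2.57, 1.78 and 1.51 CPM on the high and 4.25, 5.35 and 2.05 CPM on the normal phosphate diet, so the diets overlapped. It fell by 0.99 on the log2 scale (edgeR adjusted p = 0.0481), and this call was lost without high phosphate replicate 2 or 3 (-0.91 and -0.82) or without normal phosphate replicate 1 or 2 (-0.92 and -0.68), at edgeR adjusted p values of 0.111 to 0.156. It was also lost with size factors by relative log expression (-0.97, edgeR adjusted p = 0.0507) and with limma on log2(FPKM + 1) (-0.61, limma adjusted p = 0.0542, and 0.110 without a filter).

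Ccr7 had the largest change of any tested member. This receptor brings naive T cells, B cells and dendritic cells into lymph nodes. It had 1, 5 and 2 counts (0.0458, 0.255 and 0.104 CPM) on the high phosphate diet, against 27, 111 and 69 counts (1.03, 3.93 and 2.53 CPM) on the normal phosphate diet. Its log2 fold change was -4.19 ± 0.67 (edgeR adjusted p = 0.00163), and -3.70 without normal phosphate replicate 2. At such counts the ratio of normal to high phosphate summed over libraries was 19.2, with a 95% counting interval of 9.58 to 45.2, which covers counting error only.

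Ccr6, a receptor of B cells and Th17 cells, was not tested after the filter. It had 0 counts in all 3 high phosphate libraries and 6, 29 and 45 counts on the normal phosphate diet. A count of 0 has an upper 95% counting limit of about 3 counts. Set against that limit over the high phosphate libraries, it was at least 19.8-fold lower on the high phosphate diet. This bound covers counting error only, not the spread between libraries. With no filter edgeR called Ccr6 lower (edgeR adjusted p = 0.00923). It likewise called Ccr3, the eosinophil receptor (0.0350), and Ccr4 of Th2 and regulatory T cells (0.0379). Limma on log2(FPKM + 1) without a filter did not call these genes (limma adjusted p = 0.333, 0.192 and 0.0825). Their counts were small: Ccr3 had 0, 2 and 4 on the high and 8, 20 and 5 on the normal phosphate diet, and Ccr4 had 0, 0 and 0 against 1, 4 and 4. Ccr8 had 1 count on the high phosphate diet and 7 on the normal phosphate diet.

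Ccr9 and Ccr10, receptors of gut and skin lymphocytes, were not called. Ccr9 had 0.550, 0.357 and 0.208 CPM on the high and 0.536, 0.779 and 0.952 CPM on the normal phosphate diet (-0.999 ± 0.41, edgeR adjusted p = 0.0703). Leaving out normal phosphate replicate 1 brought a call (-1.19, edgeR adjusted p = 0.04996), and 21.5% of its exonic bases are also annotated to other genes. Ccr10 had 0.458, 0.611 and 0.831 CPM on the high and 0.536, 0.673 and 0.622 CPM on the normal phosphate diet, with diets that overlapped and a change of 0.04 ± 0.33 on the log2 scale (edgeR adjusted p = 0.928). Its sign turned without high phosphate replicate 3 (-0.18) or normal phosphate replicate 1 (-0.04), and with library size alone (-0.43).

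Cx3cr1, the fractalkine receptor of monocytes, macrophages and NK cells, had 0.962, 1.22 and 1.30 CPM on the high phosphate diet, against 5.36, 10.9 and 5.20 CPM on the normal phosphate diet. The 3 high phosphate libraries lay within a narrow range and the diets were apart. Its change was -2.62 ± 0.34 (edgeR adjusted p = 0.000714) and -2.19 without normal phosphate replicate 2. Its ligand Cx3cl1, made by endothelium and other cells, had 7.51, 5.81 and 3.84 CPM on the high and 10.96, 14.6 and 11.9 CPM on the normal phosphate diet (-1.12 ± 0.23, edgeR adjusted p = 0.00401). Receptor and ligand were thus both lower in every high phosphate library than in any normal phosphate one.

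**Figure D2:**
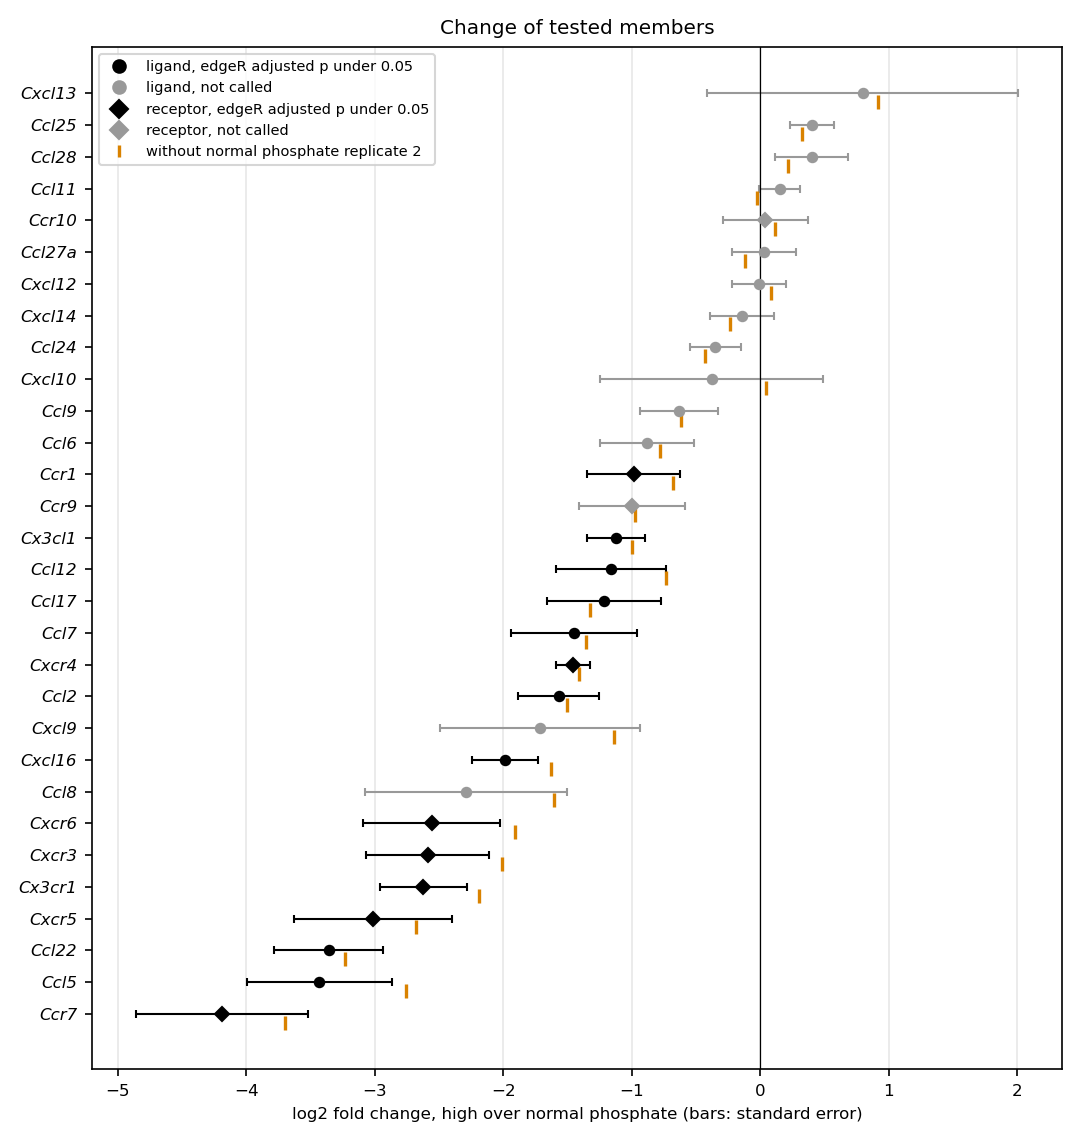
Log2 fold change, high over normal phosphate, of tested members with its standard error, ligands as circles and receptors as diamonds, black where the edgeR adjusted p was under 0.05 and grey where not. Orange ticks give the value without normal phosphate replicate 2. The called members shown lie below 0, from -0.99 for Ccr1 to -4.19 for Ccr7.

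Among the ligands of T cells and dendritic cells, Ccl5, Ccl22 and Ccl17 fell. Ccl5, known as RANTES, a product of T and NK cells that binds Ccr1 among other receptors, had 1.05, 0.459 and 0.519 CPM on the high phosphate diet, against 3.64, 13.0 and 5.71 CPM on the normal phosphate diet. Its change was -3.43 ± 0.56 (edgeR adjusted p = 0.00228), and -2.76 without normal phosphate replicate 2. Ccl3 and Ccl4, inflammatory ligands of macrophages and T cells encoded near Ccl5, were below the filter. Ccl3 had 0, 2 and 0 counts on the high and 9, 30 and 8 counts on the normal phosphate diet, a ratio of normal to high phosphate of 17.5 (95% counting interval 4.58 to 149). Ccl4 had 0, 2 and 0 counts on the high and 7, 17 and 9 counts on the normal phosphate diet, a ratio of 12.3 (3.14 to 106). With no filter both were called lower (edgeR adjusted p = 0.000289 for Ccl3 and 0.00102 for Ccl4). Limma on log2(FPKM + 1) did not call Ccl3 (limma adjusted p = 0.0839, and 0.156 without a filter). It called Ccl4 (limma adjusted p = 0.0238, and 0.0496 without a filter). Limma on log2(FPKM + 0.1) called both (limma adjusted p = 0.0263 and 0.0103).

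Ccl22, a dendritic cell and macrophage product that binds Ccr4, had 6, 2 and 4 counts (0.275, 0.102 and 0.208 CPM) on the high phosphate diet, against 35, 68 and 67 counts (1.34, 2.41 and 2.45 CPM) on the normal phosphate diet. The diets stood far apart on these small counts. Its change was -3.36 ± 0.42 (edgeR adjusted p = 0.000662). Ccl17, its neighbour on chromosome 8 and the other Ccr4 ligand, had 0.321, 0.102 and 0.208 CPM on the high and 0.575, 0.425 and 0.513 CPM on the normal phosphate diet. It fell by 1.22 on the log2 scale (edgeR adjusted p = 0.0452), but the call was lost without any 1 library except high phosphate replicate 1, at values of -0.89 (without high phosphate replicate 2) to -1.33 (without normal phosphate replicate 2), and with DESeq2 (-1.21, DESeq2 adjusted p = 0.191).

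Cxcl16, a membrane-bound ligand of Cxcr6 that macrophages also use as a scavenger receptor, had 3.57, 4.13 and 3.998 CPM on the high and 12.8, 22.2 and 11.3 CPM on the normal phosphate diet. The high phosphate libraries were alike and all below the normal phosphate ones. Its change was -1.99 ± 0.26 (edgeR adjusted p = 0.000809), and -1.63 without normal phosphate replicate 2. Of its exonic bases 18.3% overlap Zmynd15 on the opposite strand, and since no strand setting is given its count is uncertain to that extent.

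The monocyte-attracting CC ligands of chromosome 11 were lower, 3 of 4 by the test. Ccl2, the main monocyte attractant, had 1.24, 1.48 and 1.51 CPM on the high and 5.52, 4.53 and 2.49 CPM on the normal phosphate diet (-1.57 ± 0.31, edgeR adjusted p = 0.00353). Ccl7 had 1.37, 1.27 and 0.623 CPM on the high and 4.44, 3.37 and 1.21 CPM on the normal phosphate diet, with 1 normal phosphate library inside the range of the other diet (-1.45 ± 0.49, edgeR adjusted p = 0.0360). Ccl12, a mouse relative of Ccl2, had 1.24, 1.22 and 0.467 CPM on the high and 1.84, 3.33 and 1.43 CPM on the normal phosphate diet, without overlap (-1.16 ± 0.43, edgeR adjusted p = 0.0479). Ccl2 kept its call without any 1 library. Ccl7 and Ccl12 lost theirs without any 1 library except normal phosphate replicate 3: Ccl7 stood at -1.06 (without normal phosphate replicate 1) to -1.64 (without high phosphate replicate 1), and Ccl12 at -0.73 (without normal phosphate replicate 2) to -1.36 (without high phosphate replicate 1).

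Ccl8 showed the widest spread of this group. It had 12.2, 10.7 and 1.35 CPM on the high and 25.4, 70.0 and 24.0 CPM on the normal phosphate diet. The diets did not overlap, but the lowest high phosphate library lay far below the rest of its diet and normal phosphate replicate 2 far above the rest of its own. At -2.29 ± 0.79 on the log2 scale it was not called (edgeR adjusted p = 0.0538), although DESeq2 did call it (-2.26, DESeq2 adjusted p = 0.0428). Without normal phosphate replicate 2 it stood at -1.60 (edgeR adjusted p = 0.211).

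The rodent ligands Ccl6 and Ccl9, made by macrophages and other myeloid cells, were not called either. Ccl6 had 30.5, 50.7 and 20.9 CPM on the high and 75.9, 71.3 and 41.0 CPM on the normal phosphate diet (-0.88 ± 0.36, edgeR adjusted p = 0.0837). Ccl9 had 23.4, 35.2 and 16.3 CPM on the high and 48.8, 39.7 and 27.6 CPM on the normal phosphate diet (-0.63 ± 0.30, edgeR adjusted p = 0.118). In both, the diets overlapped, high phosphate replicate 2 was the highest of its diet, and high phosphate replicate 3 was the lowest of all 6 libraries. Without high phosphate replicate 2 both were called, Ccl6 at -1.27 (edgeR adjusted p = 0.0160) and Ccl9 at -0.95 (0.0264), and Ccl6 was also called without normal phosphate replicate 3 (-1.12, 0.0440) and with DESeq2 (-0.85, DESeq2 adjusted p = 0.0200).

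The interferon-induced ligands Cxcl9 and Cxcl10, which bind Cxcr3, turned on a single library. Cxcl9 had 7.47, 0.917 and 1.97 CPM on the high and 8.81, 19.1 and 6.59 CPM on the normal phosphate diet. Cxcl10 had 4.58, 0.713 and 0.312 CPM on the high and 2.22, 3.72 and 1.46 CPM on the normal phosphate diet. High phosphate replicate 1 thus lay within or above the normal phosphate range for both, and the other 2 high phosphate libraries below it. Neither was called (Cxcl9 -1.72 ± 0.78, edgeR adjusted p = 0.115, and Cxcl10 -0.38 ± 0.87, edgeR adjusted p = 0.740). Without high phosphate replicate 1 both were called lower, Cxcl9 at -2.98 (edgeR adjusted p = 0.0111) and Cxcl10 at -2.24 (0.0148). The sign of Cxcl10 turned without high phosphate replicate 2 (0.018) or 3 (0.13) or normal phosphate replicate 2 (0.048).

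The same library was the highest of its diet for a regulator of interferon-induced transcription, which was picked after its values were seen. Irf1, a transcription factor induced by interferon gamma, had 37.5, 14.7 and 15.2 CPM on the high and 31.1, 40.8 and 33.4 CPM on the normal phosphate diet. Its part in the levels of Cxcl9 and Cxcl10 was not tested. The receptor Cxcr3 at 0.458 CPM was also highest in that library among the high phosphate ones, though below all normal phosphate libraries.

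Cxcl13, the B cell attractant of lymphoid follicles, departed from its receptor Cxcr5. It had 19, 444 and 22 counts (0.871, 22.6 and 1.14 CPM) on the high phosphate diet, against 64, 154 and 169 counts (2.45, 5.46 and 6.19 CPM) on the normal phosphate diet. High phosphate replicate 2 was above every other library and replicates 1 and 3 were below every normal phosphate one. The fold change was 0.80 ± 1.21 (edgeR adjusted p = 0.612), and without high phosphate replicate 2 it was -2.21 and called (edgeR adjusted p = 0.00785). On the high phosphate diet Cxcr5 was at 0.275, 0.459 and 0.467 CPM and the 10 B cell markers summed to 1.33, 2.96 and 2.70 CPM. Cr2, a gene of follicular dendritic cells and B cells, had 1, 0 and 3 counts there. The part of such cells in the Cxcl13 level was not tested.

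**Figure D3:**
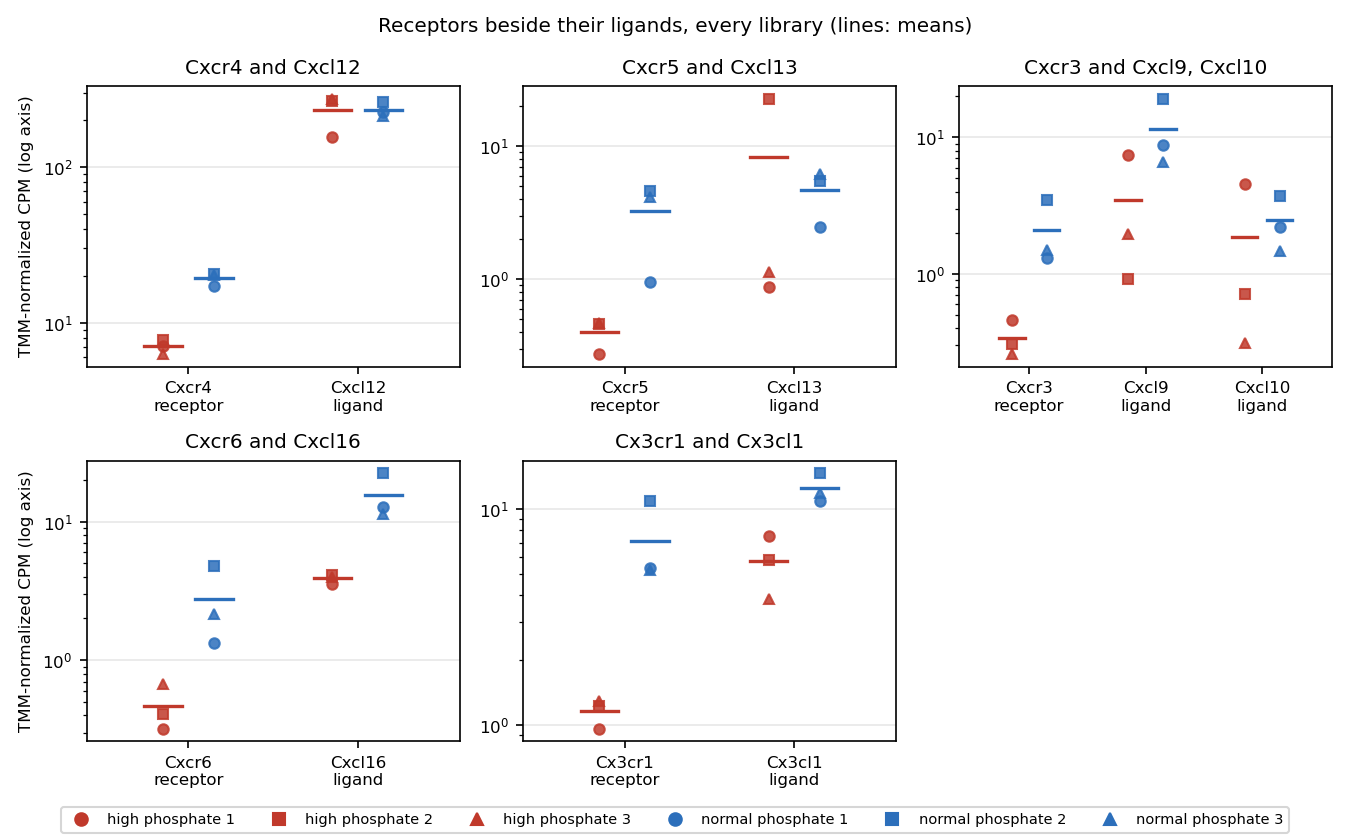
TMM-normalized CPM (log axis) of 5 receptors beside ligands they bind, one point per library, high phosphate left of normal phosphate, lines at the means. Each receptor is lower in all 3 high phosphate libraries than in any normal phosphate library, while Cxcl12, Cxcl13, Cxcl9 and Cxcl10 overlap between the diets.

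The ligands of Ccr7 differed between the deposited tables. In counts, Ccl19 had 3, 6 and 3 counts on the high and 6, 15 and 11 counts on the normal phosphate diet, Ccl21a had 2 counts and Ccl21b 2 counts over all 6 libraries. These genes sit in a duplicated stretch of chromosome 4. Of the 50-base stretches of their transcripts, 52.0% of those of Ccl19, 71.6% of those of Ccl21a and 100% of those of Ccl21b also occur in transcripts of other genes or copies. In the authors' FPKM, by contrast, Ccl21a had 3.21, 7.48 and 8.46 on the high and 14.5, 23.4 and 25.5 on the normal phosphate diet. Ccl21b had 2.39, 3.50 and 3.999 FPKM on the high and 6.79, 11.3 and 12.0 FPKM on the normal phosphate diet. Neither gene overlapped between the diets in FPKM. On log2(FPKM + 1) limma put Ccl21a at -1.63 (limma adjusted p = 0.0146) and Ccl21b at -1.34 (limma adjusted p = 0.00935), where 32.0% of all genes were lower and the median gene stood at -0.26. Ccl19 had 0.256, 0.411 and 0.206 FPKM on the high and 0.421, 1.77 and 1.69 FPKM on the normal phosphate diet, and was not called there (-0.77, limma adjusted p = 0.0558). The sources used here do not say how reads of copies were treated in either table, so the levels of these 3 genes are uncertain.

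Ligands known from tissue upkeep were among the most abundant members and were not called. Per length, in the authors' FPKM, the highest means on the high phosphate diet were Cxcl14 at 41.4 ± 14.1, Cxcl12 at 38.3 ± 10.8 and Ccl11 at 33.2 ± 3.49, followed by Ccl6 at 16.5 ± 8.60 and Ccl8 at 10.2 ± 7.29. On the normal phosphate diet the order was Ccl8 at 73.0 ± 54.5, Cxcl14 at 61.8 ± 11.2, Cxcl12 at 57.5 ± 17.9, Ccl6 at 41.8 ± 14.2 and Ccl11 at 40.5 ± 6.31. Neighbours in either order differed by less than the larger of their SDs, apart from Ccl11 and Ccl6 on the high phosphate diet. The receptor with the highest mean was Cxcr4, at 2.53 ± 0.272 FPKM on the high and 9.92 ± 2.05 FPKM on the normal phosphate diet.

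Cxcl12, made by stromal cells and the ligand of Cxcr4, had 156, 265 and 275 CPM on the high and 226, 263 and 213 CPM on the normal phosphate diet. The diets overlapped and the log2 fold change was -0.01 ± 0.21 (edgeR adjusted p = 0.973), with the sign turning without high phosphate replicate 1 (0.22) or normal phosphate replicate 2 (0.082). Cxcl14, a fibroblast and epithelial chemokine, had 76.2, 146 and 123 CPM on the high and 162, 110 and 108 CPM on the normal phosphate diet (-0.14 ± 0.25, edgeR adjusted p = 0.664). Its sign turned without replicate 1 of either diet (0.096 without the high phosphate one and 0.080 without the normal phosphate one). Cxcr4 was thus called lower beside a ligand that was not, and the difference between the 2 genes was not tested.

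The eosinophil-attracting ligands were likewise not called. Ccl11, eotaxin, had 50.8, 57.2 and 55.9 CPM on the high and 54.9, 36.6 and 56.2 CPM on the normal phosphate diet (0.15 ± 0.16, edgeR adjusted p = 0.451). Its lowest library was normal phosphate replicate 2, and without it the value was -0.025. Ccl24 had 3.76, 4.48 and 4.26 CPM on the high and 6.55, 4.71 and 4.65 CPM on the normal phosphate diet, and although the diets did not overlap it was not called (-0.35 ± 0.20, edgeR adjusted p = 0.164). Ccl26 had 1 count on each diet.

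Ccl25, Ccl28 and Ccl27a, ligands best known from gut and skin, had the other values at or above 0. Ccl25 had 9.21, 7.18 and 7.94 CPM on the high and 5.75, 5.49 and 7.18 CPM on the normal phosphate diet, so that the high phosphate libraries lay above the normal phosphate ones, by less than 0.01 CPM at the closest pair. Its change was 0.40 ± 0.17 (edgeR adjusted p = 0.0715). Leaving out normal phosphate replicate 3 brought a call (0.52, edgeR adjusted p = 0.0465), and its sign turned with library size alone (-0.075). Ccl28 had 1.19, 1.07 and 1.19 CPM on the high and 0.996, 0.638 and 0.988 CPM on the normal phosphate diet (0.40 ± 0.28, edgeR adjusted p = 0.265), and also turned with library size alone (-0.066). These were the 2 tested members whose high phosphate libraries lay above all normal phosphate ones, as in 30.3% of all genes. Ccl27a had 3.94, 4.69 and 2.75 CPM on the high and 4.41, 2.91 and 3.84 CPM on the normal phosphate diet (0.03 ± 0.25), with the sign turning without high phosphate replicate 2 (-0.13) or normal phosphate replicate 2 (-0.12), and 45.0% of its 50-base stretches occur in copies such as Ccl27b.

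The neutrophil-attracting CXC ligands could not be tested. Cxcl1 had 7, 6 and 2 counts on the high and 9, 9 and 10 counts on the normal phosphate diet. Cxcl2, Cxcl3 and Cxcl5 had 0 to 4 counts in any library. Cxcl15, Ccl20 and Ccl27b had 0 counts in all 6 libraries. Ccl1 had 5 counts, all on the normal phosphate diet, and Cxcl17 had 2 on the high and 3 on the normal phosphate diet.

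Many genes that act with the chemokines were lower as well, in lists chosen for their function. The counts of each list stand against all genes tested, of which 26.3% fell and 23.0% rose. Of 27 genes of migration signalling and integrins, 17 fell and 1 rose, with a median log2 fold change of -1.10. Itgb2, the beta chain of the leukocyte integrins (-1.80 ± 0.22, edgeR adjusted p = 0.000662), the focal adhesion kinase relative Ptk2b (-2.29 ± 0.29), and Dock2, a Rac activator of leukocytes (-2.20 ± 0.28), fell. Dock2 had 5.13, 4.38 and 4.57 CPM on the high and 15.1, 31.6 and 18.0 CPM on the normal phosphate diet. Rac1, a GTPase of most cells, was the 1 that rose (0.34 ± 0.13, edgeR adjusted p = 0.0487).

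The lists that follow also stand against the 26.3% of all genes tested that fell and the 23.0% that rose. Of 17 genes of G protein coupling and desensitisation, 15 fell and 0 rose, at a median of -0.79. The GTPase accelerator Rgs2 (-1.76 ± 0.20) and the G protein subunits Gng2 (-1.45 ± 0.19) and Gnai1 (-1.30 ± 0.17) were among them. Of 9 tested genes for atypical receptors and chemokines outside the naming rule, 4 fell and 0 rose. They included Pf4, platelet factor 4, which muscle macrophages also make (-1.14 ± 0.14), Ackr4, a scavenger of Ccl19, Ccl21 and Ccl25 (-1.91 ± 0.27), and Cklf (-1.84 ± 0.29).

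Of 7 tested proteases that cleave chemokines, 6 fell and 0 rose. Mmp2, a gelatinase that cleaves Cxcl12, had 82.4, 77.6 and 96.3 CPM on the high and 292, 526 and 231 CPM on the normal phosphate diet (-2.03 ± 0.29, edgeR adjusted p = 0.00119). Adam10, which sheds Cx3cl1 and Cxcl16, fell by 0.55 on the log2 scale. Mmp13 changed by -3.83 ± 0.93 on small counts, 2, 3 and 3 on the high and 27, 118 and 16 on the normal phosphate diet. Normal phosphate replicate 2 was far above the rest of its diet for Mmp13. Of 18 tested inducers of chemokine transcription, 12 fell and 0 rose, among them the receptor Tlr2 (-1.51 ± 0.22), its adaptor Myd88 (-0.70 ± 0.16) and Nfkb2 (-0.53 ± 0.12). In the last 4 lists, DESeq2 also called 0 genes higher, and at an unadjusted p under 0.05 in edgeR 1 was higher, Mif among the chemokines outside the naming rule. Of all genes 26.3% fell and 23.0% rose.

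Many markers of immune and stromal cells were also lower. Their counts below stand against 26.3% of all genes tested that fell and 23.0% that rose. In bulk muscle, fewer cells of a type and less RNA per cell cannot be told apart. The 14 macrophage markers summed to 410 to 600 CPM on the high and 1081 to 2027 CPM on the normal phosphate diet, and 12 fell. Cd163 rose (0.59 ± 0.22, edgeR adjusted p = 0.0494), close to the threshold. Mrc1 (-1.40), Folr2 (-1.10) and Mertk (-0.50) were among those that fell, and Timd4 (-1.44) was not called. The 10 T cell markers summed to 7.94 to 10.997 CPM on the high and 15.9 to 52.0 CPM on the normal phosphate diet, with 9 lower. The tenth, Cd28, had 9.07, 5.71 and 6.23 CPM on the high and 2.91, 5.07 and 5.13 CPM on the normal phosphate diet and was not called by edgeR (0.68 ± 0.26, edgeR adjusted p = 0.0540), though DESeq2 called it higher. Without Cd28, left out after its values were seen, the other 9 summed to 1.71 to 2.70 CPM on the high and 13.0 to 46.9 CPM on the normal phosphate diet. The 10 B cell markers summed to 1.33 to 2.96 CPM on the high and 14.7 to 98.6 CPM on the normal phosphate diet, with all 10 lower. The 6 NK cell markers summed to 0.779 to 2.29 CPM on the high and 4.75 to 10.6 CPM on the normal phosphate diet, with 4 of 5 tested lower.

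Other lists are given against the same share, 26.3% of all genes lower. The 10 monocyte and neutrophil markers summed to 13.6 to 18.3 CPM on the high and 31.0 to 54.2 CPM on the normal phosphate diet (6 of 8 tested fell). The 6 dendritic cell markers summed to 28.8 to 28.9 CPM and 30.5 to 40.3 CPM (3 of 6 fell). Zbtb46 (0.13), Cd209a (0.28) and Siglech (-0.49) of the dendritic cell list were not called. Fibroblast markers summed to 4357 to 5451 CPM on the high and 9012 to 13271 CPM on the normal phosphate diet, and 9 of 10 fell. Blood endothelial markers summed to 497 to 685 CPM on the high and 858 to 1036 CPM on the normal phosphate diet (7 of 8 fell), and lymphatic markers to 50.9 to 87.4 CPM and 92.6 to 118 CPM (4 of 6 fell). White adipocyte markers summed to 588 to 1009 CPM on the high and 2445 to 3101 CPM on the normal phosphate diet, and all 8 fell. The part of these cells in the chemokine levels was not tested.

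**Figure D4:**
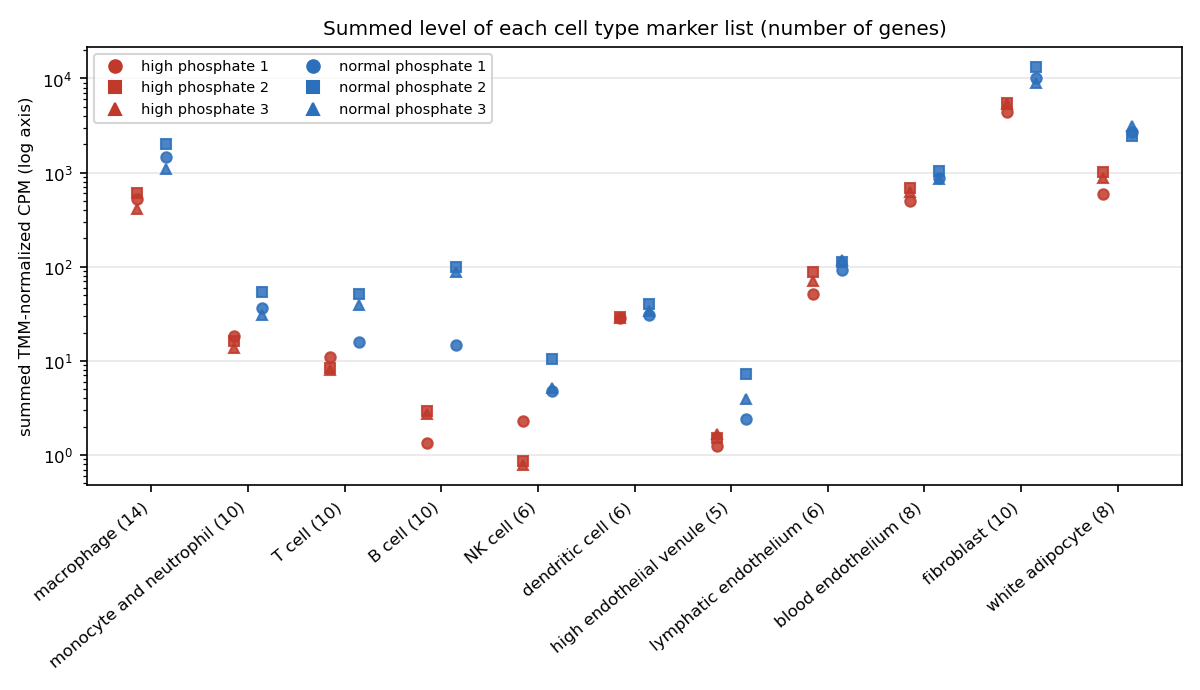
Summed TMM-normalized CPM (log axis) of each list of markers of cells other than muscle fibres, one point per library, high phosphate left of normal phosphate, with the number of genes of the list in brackets. Normal phosphate replicate 1 lies at 14.7 CPM for B cells, against 98.6 and 88.9 CPM in replicates 2 and 3, and above all high phosphate libraries.

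The lymph node genes varied within the normal phosphate diet. Glycam1, a ligand for lymphocyte homing in high endothelial venules, had a count of 0 in all high phosphate libraries and 0.0766, 0.744 and 1.03 CPM on the normal phosphate diet. Madcam1 and Chst4, other markers of such venules, were at 0 counts in all high phosphate libraries too. On the normal phosphate diet Madcam1 had 0, 3 and 1 counts and Chst4 0, 4 and 6, so both were near the floor on either diet. Fut7 of the same list had 2, 0 and 0 counts on the high and 7, 16 and 10 counts on the normal phosphate diet. The 5 markers of the list summed to 1.24 to 1.66 CPM on the high and 2.41 to 7.19 CPM on the normal phosphate diet, and the 1 that could be tested fell. Cr2 had 0.0458, 0 and 0.156 CPM on the high and 0.613, 9.11 and 8.79 CPM on the normal phosphate diet. Normal phosphate replicate 1 was the lowest of its diet for these genes. It was also the lowest of its diet for 11 of the 31 members tested, among them Ccr7, Cxcr5, Cxcl13, Ccl22, Ccl5, Cx3cl1, Cxcr3, Cxcr4 and Cxcr6, and for Ccr6. Normal phosphate replicate 3 was the lowest for 15, among them Ccl2, Ccl7, Ccl12, Ccr1, Cx3cr1 and Cxcl16, and replicate 2 for 5. The part of lymph node tissue in these levels was not tested.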

How the data were processed

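Per the labels' protocols, RNA was isolated with TRIzol and made into standard Illumina libraries. The authors deposited a table of raw counts, whole numbers that differ in total between libraries, and a table of FPKM values, which are scaled to depth and gene length. The submitters' processing notes name featureCounts 1.4.6, HISAT2 2.0.1, DESeq2 1.6.3 and Trim Galore 0.4.1, and the GRCm38 build. No source used here gives the annotation release, the strand setting or how FPKM was made, so overlapping genes may share reads whatever their strand.

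Counts were tested with edgeR 4.0.16 (R 4.3.3): TMM, filterByExpr (10 counts at the median library size, or 0.433 CPM, in 3 libraries), robust quasi-likelihood F test, and Benjamini-Hochberg adjustment over 15347 genes at 0.05. A called gene has no minimum fold. The SE is the log2 fold change divided by the square root of F. The largest counting error of a gene at 1 CPM was 22.8%, and intervals cover counting error only. Tested members are named, other members are given by counts, and up to 3 called genes by smallest p are named from each pathway list. Irf1, Ltb, Mif and the single markers were picked with their values known. Members, lists and tests were chosen with earlier results of these data known. No 2 libraries were copies: within a diet, r across genes was 0.981 to 0.989 and the chi-square of the counts was 18.1 to 58.0 times its degrees of freedom. Alternatives were other normalizations and filters, leaving out each library, the replicate number as a block, DESeq2 1.42.0, and limma 3.58.1 on log2(FPKM + 1) and log2(FPKM + 0.1). The edgeR step was tested on simulated data. Shared stretches of 50 bases and gene positions come from GENCODE M21. Some genes are not reported here singly, though counts of genes may include them.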

Additional observations from a re-analysis of the deposited data

How the results depend on the processing

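Of 459 values of single members under alternatives, 365 kept their direction and their side of the threshold, 32 lost a call, 25 gained one and 37 changed sign. Of the 16 called members, 8 kept their call under every alternative run, among them Ccl2, Ccl5, Ccl22, Cxcl16, Cxcr4, Cxcr5 and Cx3cr1. Ccr7, Cxcr3, Cxcr6 and Cx3cl1 lost theirs only with limma on log2(FPKM + 1) over all genes above 0. DESeq2 gave no adjusted p for Cxcl13, and genes removed by a filter have no value under it.

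With library size alone 878 genes were higher and 7886 lower, and 13 ligands were lower. With limma these numbers were 772, 6486 and 14 on log2(FPKM + 1), and 805, 6962 and 16 on log2(FPKM + 0.1). With limma on log2(FPKM + 1) over all 31447 genes above 0, 653 genes were higher and 5312 lower. In that fit 9 ligands and 4 receptors were lower. When 1 library was left out, 5 to 8 ligands were lower and 0 to 1 higher (Ccl25, without normal phosphate replicate 3). Each such fit has 2 libraries in one diet. The 5 came without high phosphate replicate 3 or normal phosphate replicate 1 or 2, which removed Ccl7, Ccl12 and Ccl17. The cause of these shifts was not tested.

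Same-numbered libraries of the diets did not deviate together (correlations of -0.021, 0.022 and 0.019), and high phosphate replicate 1 correlated best with normal phosphate replicate 3 (0.026). With the replicate block 3407 genes were higher and 3921 lower, 10 ligands and 8 receptors were lower, Ccl17 lost its call (-1.26, edgeR adjusted p = 0.0503), and Ccl6 (-0.92), Ccl8 (-2.44) and Ccl9 (-0.66) gained one.

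Signs turned as follows. With library size alone: Ccl11 -0.31, Ccl25 -0.075, Ccl27a -0.44, Ccl28 -0.066 and Ccr10 -0.43. With log2(FPKM + 1), the same with or without a filter on low values: Ccl11 -0.27, Ccl27a -0.37, Ccl28 -0.0085, Cxcl13 -0.46 and Ccr10 -0.077. With log2(FPKM + 0.1): Ccl11 -0.28, Ccl27a -0.41, Ccl28 -0.030, Cxcl13 -0.98 and Ccr10 -0.28. Cxcl12 turned with size factors by relative log expression (0.0026), no filter (0.0029) and DESeq2 (0.024), and Cxcl13 with the replicate block (-0.29). With 1 library left out, the ranges that crossed 0 were -0.025 (without normal phosphate replicate 2) to 0.25 for Ccl11, -0.13 (without high phosphate replicate 2) to 0.23 for Ccl27a, -2.24 to 0.13 (without high phosphate replicate 3) for Cxcl10, -0.14 to 0.22 (without high phosphate replicate 1) for Cxcl12, -2.21 (without high phosphate replicate 2) to 1.35 for Cxcl13, -0.34 to 0.096 (without high phosphate replicate 1) for Cxcl14, and -0.18 (without high phosphate replicate 3) to 0.25 for Ccr10.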

Other observations

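Cxcl11, the remaining ligand of Cxcr3, is annotated as a polymorphic pseudogene and so stood outside the naming rule. It had 22, 11 and 8 counts (1.01, 0.560 and 0.415 CPM) on the high phosphate diet, against 10, 14 and 9 counts (0.383, 0.496 and 0.329 CPM) on the normal phosphate diet, and was not called (0.72 ± 0.41, edgeR adjusted p = 0.167). As with Cxcl9 and Cxcl10, high phosphate replicate 1 was the highest of its diet.

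Among genes named after their values were seen, Ltb, the lymphotoxin beta chain made by lymphocytes, which in lymphoid stroma induces Cxcl13, Ccl19 and Ccl21, had 0.412, 0.408 and 0.363 CPM on the high and 0.958, 7.72 and 7.80 CPM on the normal phosphate diet (-3.78 ± 0.82, edgeR adjusted p = 0.00807). In high phosphate replicates 1, 2 and 3 Ltb had 9, 8 and 7 counts, too few to rank these libraries. Its part in the Cxcl13 level was not tested.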
